A study of Mus musculus with 8 samples.

Results

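Tyrobp, Lyz2, Clec7a, Csf1r, Adgre1, C1qa, C1qb and Mrc1 are genes whose products mark macrophages: cell surface receptors, a signalling adaptor, subunits of a secreted complement protein and a secreted lysozyme. The genes were chosen with earlier results of these data known, and their probe sets were taken by symbol alone. Every probe set that the platform annotation gives to exactly 1 of these names was used. These came to 12 of the 45101 probe sets on the array and 8 of its 18193 genes. Csf1r and C1qb have 3 probe sets each and the other members 1 each. Where a gene has several, the one with the highest mean over all arrays stood for the gene, and the others are given beside it.

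The arrays measured RNA of the whole testis from male animals at day 28 after birth, on a mixed background that the labels give as C57BL6/6J and 129. All groups carried Dmrt1 flox/flox, the conditional allele of a transcription factor gene of the testis. There were 4 arrays of Dmrt1 flox/flox with SF1-cre (here Sf1-Cre), 2 labelled Dmrt1 flox/flox with Dhh-cre, and 2 controls of Dmrt1 flox/flox with no Cre. Cre was driven by the promoter of Sf1 (Nr5a1) or of Dhh, which the series text calls specific to Sertoli cells, the supporting cells of the seminiferous tubule. The labels call the arrays biological replicates without saying whether a sample was 1 animal or a pool, so the p-values measure the spread between these samples, which may in part be technical.

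Macrophages are the most abundant immune cells of the healthy testis and lie in the interstitium beside the Leydig cells and on the surface of the tubules. Their survival depends on Csf1r, the receptor for the growth factors Csf1 and Il34. Tyrobp passes on the signals of several activating receptors that have no signalling tail of their own, and C1q starts the classical complement cascade and tags dead cells and debris for uptake.

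Intensities are the deposited GCRMA values on a log2 scale, and a log2 level of 4 served as the floor of measurement. Array medians were 15.2 to 15.9 intensity units in Sf1-Cre testes, 15.3 to 15.5 in those labelled Dhh-Cre and 13.7 to 14.1 in controls. The Dmrt1 signal was 7.10, 7.89, 7.63 and 7.53 on the log2 scale in Sf1-Cre testes, 10.43 and 9.94 in those with the Dhh-Cre label, and 8.50 and 8.76 in controls. The Dmrt1 signal was thus lower than in controls in Sf1-Cre testes (difference -1.09, limma adjusted p = 0.00368). It was higher in the arrays labelled Dhh-Cre (1.55, adjusted p = 0.00117), so the loss that this label names was not seen. The label names a knockout in Sertoli cells, while the arrays read whole testis. Centring on housekeeping genes takes 1.38 and 1.41 off these 2 differences. No source used here says whether the probes lie in the deleted stretch, and what the signal says of the label was not tested. Across the tested probe sets Pearson correlations were 0.96 to 0.99 between Sf1-Cre arrays, 0.90 to 0.95 between Sf1-Cre arrays and those labelled Dhh-Cre, 0.62 to 0.75 between Sf1-Cre and control arrays and 0.58 to 0.65 between arrays labelled Dhh-Cre and controls. Spink8, an epididymis gene, was at log2 12.05 and 10.49 in Sf1-Cre replicates 1 and 3 and at 11.55 in replicate 1 labelled Dhh-Cre, against 3.11 to 6.87 in the other 5 arrays, and neutrophil and B cell markers were high in Sf1-Cre replicate 1 (values with the leukocyte lists). All 10 spermatid markers reached the floor on both controls, but 6 did so on every Sf1-Cre array and 5 on both arrays labelled Dhh-Cre.

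All 8 genes were higher in Sf1-Cre testes than in controls, on all 12 probe sets, by log2 1.73 to 5.06. That is a share to be read against the whole array, where 45.9% of 25761 tested probe sets and 46.3% of 13801 genes were called higher and 33.1% of genes lower. In the arrays labelled Dhh-Cre 7 of the 8 genes and 11 of the 12 probe sets were higher than in controls, against 49.1% of probe sets and 48.9% of genes higher and 30.4% of genes lower. The median difference over the 8 genes was 4.08 in Sf1-Cre testes and 3.10 in the arrays labelled Dhh-Cre, against medians of 0.36 and 0.57 over all tested probe sets. Clec7a reached the floor on Sf1-Cre arrays only and C1qa on mutant arrays only, so they had to differ to be measured. The other 6 genes were at or above the floor on all 8 arrays, and these 6 were all higher in both comparisons, with medians of 3.68 and 3.10. Both comparisons use the same 2 controls. As the 8 genes were chosen with earlier results of these data known, their counts give no independent check on the cell type. In whole tissue RNA, a change in how many cells of a type are present and a change in RNA per cell cannot be told apart.

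The lowest Sf1-Cre array stood above both controls for each of the 12 probe sets, as it did for 83.9% of all tested probe sets in one direction or the other. In the arrays labelled Dhh-Cre all 12 stood clear of the controls as well, where 90.6% of all probe sets did. Clec7a is counted in these 12 though it was under the floor in both groups, so its separation is no measured difference. Directions depend on the scale. With each array centred on housekeeping genes the differences of all 8 members in Sf1-Cre testes stayed above 0 and 7 were called higher, C1qb being the exception (0.35, adjusted p = 0.118). The share of higher calls among all called probe sets was then 21.6%, against 59.2% on the deposited scale. Centred on peritubular and endothelial genes, 5 members were called higher and 2, C1qb and Mrc1, lower (2.86% of all calls higher). C1qb is read here by its leading probe set. Its probe set 1417063_at differed from controls by 3.90 in Sf1-Cre testes, more than the 3.17 that this centring took off. Centred on other macrophage genes none was called higher and 3, Adgre1, C1qb and Mrc1, were lower (0.442%). In the arrays labelled Dhh-Cre the shares of higher calls were 63.0% on the deposited scale and 23.7%, 2.26% and 0.880% under the 3 centrings, with 5, 2 and 1 members called higher under them and 1, 3 and 3 lower. Clec7a, under the floor in both groups, was among the lower calls under each centring. These centrings took 1.38, 3.17 and 4.49 off every log2 difference between Sf1-Cre and control, and 1.41, 2.93 and 3.47 off every one between the arrays labelled Dhh-Cre and control. They lowered the median of all probe sets by the same steps, so the gap between the members and the rest of the array was the same on each scale. Each step was the change in the median level of a list, which differs from the median change of its genes. In Sf1-Cre testes the median changes were 0.66 for housekeeping, 1.28 for peritubular, 2.86 for endothelial and 3.58 for other macrophage genes. Only 5 of 12, 0 of 10, 3 of 8 and 5 of 19 of them rose by more than the step. A call of lower thus sets a member against the step and not against the typical gene of the list.

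**Figure D1:**
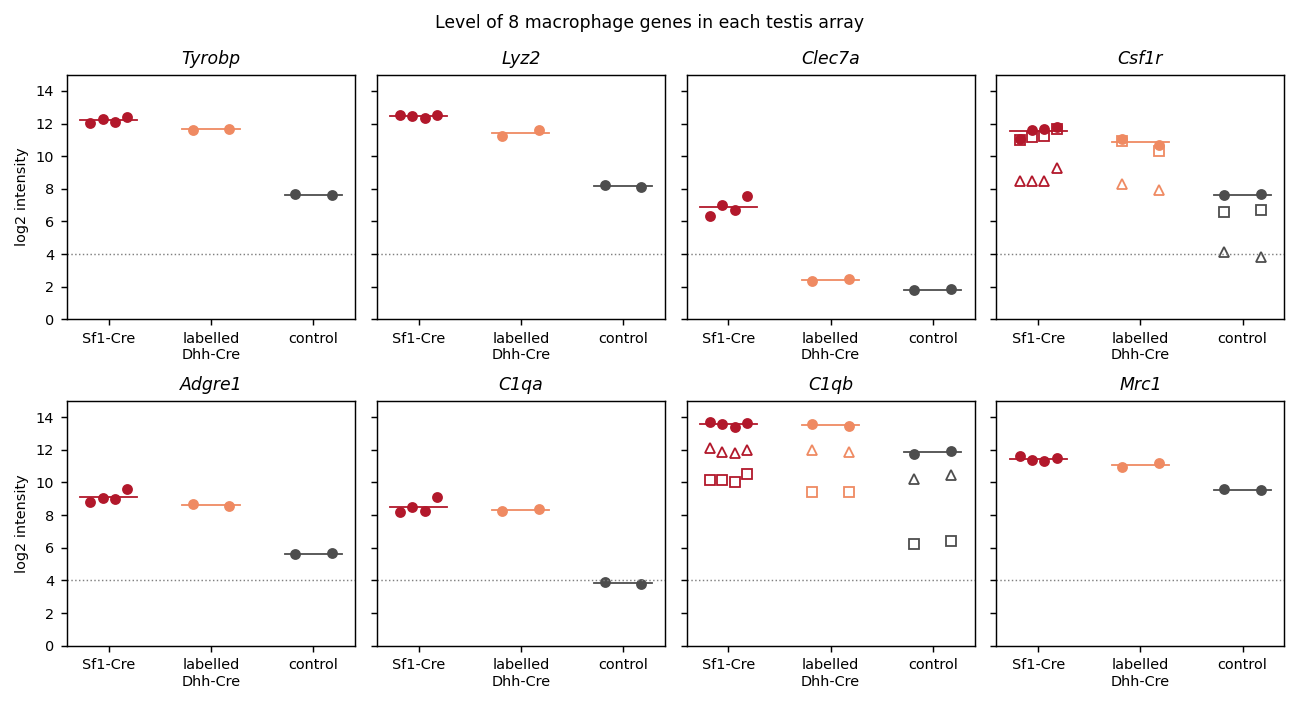
Log2 intensity of the 8 genes in each array, with 1 point per array, a bar at the group mean of the leading probe set, open squares and triangles for the other probe sets of Csf1r and C1qb, and a dotted line at the floor of log2 4. Every mutant point lies above both controls of the same probe set, and Clec7a lies above the floor in the 4 Sf1-Cre arrays only; after centring on peritubular and endothelial genes, C1qb and Mrc1 were lower in mutants than in controls.

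The sequence just before the transcription start was looked at because most of these genes rose in both mutants, Clec7a being the exception. PU.1 (Spi1), the factor that sets up the macrophage programme, is known to bind GAGGAA cores at myeloid promoters. No RefSeq promoter sequence on GRCm38.p6 was matched to Tyrobp, Adgre1 or C1qa, and that of Csf1r was left out, so the matches are no count over all members. The sequences of the other 4 of the 8 members are given here as the 250 bases before the start, 5′ to 3′ on the strand of the gene. They are Mrc1 at chr2:14229164-14229413 on the plus strand, C1qb at chr4:136886201-136886450, Clec7a at chr6:129472780-129473029 and Lyz2 at chr10:117282273-117282522, the last 3 on the minus strand. Capitals mark GAGGAA or its reverse complement TTCCTC.
Mrc1: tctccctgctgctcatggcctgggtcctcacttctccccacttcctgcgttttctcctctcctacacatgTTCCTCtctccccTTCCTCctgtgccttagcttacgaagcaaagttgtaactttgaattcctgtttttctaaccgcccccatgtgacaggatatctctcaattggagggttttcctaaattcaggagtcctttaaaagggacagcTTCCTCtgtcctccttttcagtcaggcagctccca
C1qb: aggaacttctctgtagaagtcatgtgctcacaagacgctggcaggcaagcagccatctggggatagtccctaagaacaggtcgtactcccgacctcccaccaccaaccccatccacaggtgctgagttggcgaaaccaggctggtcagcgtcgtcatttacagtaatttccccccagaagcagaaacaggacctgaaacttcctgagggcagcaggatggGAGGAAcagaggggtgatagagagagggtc
Clec7a: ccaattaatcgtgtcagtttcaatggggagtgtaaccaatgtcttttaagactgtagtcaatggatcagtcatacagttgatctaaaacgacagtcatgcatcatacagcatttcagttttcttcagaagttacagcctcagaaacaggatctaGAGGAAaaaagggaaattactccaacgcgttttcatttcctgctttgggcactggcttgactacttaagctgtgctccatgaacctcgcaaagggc
Lyz2: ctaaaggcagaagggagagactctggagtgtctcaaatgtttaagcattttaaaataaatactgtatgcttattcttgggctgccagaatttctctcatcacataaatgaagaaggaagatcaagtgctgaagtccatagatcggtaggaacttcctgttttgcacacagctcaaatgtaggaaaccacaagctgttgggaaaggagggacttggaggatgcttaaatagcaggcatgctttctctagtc
The Mrc1 window held 3 matches, those of C1qb and Clec7a 1 each and that of Lyz2 0. Of 32851 mouse promoter windows of the same length, 7639 (23.3%) held at least 1 match on either strand. A match describes the letters of the window and is not a binding site.

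Csf1r, the receptor that macrophages need to survive, was at log2 11.07, 11.63, 11.63 and 11.77 in Sf1-Cre testes, 11.05 and 10.66 in those labelled Dhh-Cre, and 7.59 and 7.67 in controls. All mutant arrays lay far above both controls, and the highest array labelled Dhh-Cre fell just under the lowest Sf1-Cre array. The difference from controls was 3.89 ± 0.22 in Sf1-Cre testes (SE, 14.9-fold, limma adjusted p = 2.14e-06) and 3.22 ± 0.26 in the arrays labelled Dhh-Cre (9.32-fold, adjusted p = 1.45e-05). Its 2 dimmer probe sets gave 4.63 and 4.69 in Sf1-Cre testes and 4.01 and 4.14 in the arrays labelled Dhh-Cre. Between the mutants the difference was 0.67, with a 95% interval from 0.16 to 1.19, and was not called (adjusted p = 0.0665).

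Tyrobp encodes DAP12, the adaptor whose tail recruits the kinase Syk once receptors such as Trem2 are engaged. Its levels were 12.02, 12.30, 12.10 and 12.40 in Sf1-Cre testes, 11.63 and 11.68 in those labelled Dhh-Cre, and 7.66 and 7.59 in controls. The 3 groups did not overlap, and the 2 mutant groups lay far nearer to each other than to the controls. Tyrobp was 23.9-fold higher in Sf1-Cre testes (4.58 ± 0.16, adjusted p = 3.15e-07) and 16.3-fold higher in the arrays labelled Dhh-Cre (4.03 ± 0.18, adjusted p = 1.43e-06) than in controls. The difference of 0.55 ± 0.16 between the mutants passed the test only narrowly (adjusted p = 0.0415), and leaving out any single array other than Sf1-Cre replicate 1 took it past the threshold (adjusted p of 0.0641 to 0.198).

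Clec7a, known as Dectin-1, is the receptor for fungal beta-glucans and sets the mutants apart. Its levels were 6.33, 7.01, 6.70 and 7.54 in Sf1-Cre testes, 2.34 and 2.50 in those with the Dhh-Cre label, and 1.81 and 1.85 in controls. Only the Sf1-Cre arrays rose above the floor. The fitted difference was 5.06 ± 0.30 against controls (adjusted p = 2.52e-06) and 4.47 ± 0.30 against the arrays labelled Dhh-Cre (adjusted p = 0.000135), and against the floor Clec7a was at least 7.43-fold higher. In the arrays labelled Dhh-Cre it could not be told from controls (0.59, 95% interval -0.21 to 1.39, adjusted p = 0.149), and as both were under the floor no fold is given. Clec7a passed the filter on low values through the Sf1-Cre arrays alone, so its differences describe the group in which it could be measured.

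Mrc1, the mannose receptor CD206, takes up glycoproteins and is high on resident macrophages. It was at 11.61, 11.35, 11.33 and 11.49 in Sf1-Cre testes, 10.96 and 11.22 in those labelled Dhh-Cre, and 9.58 and 9.54 in controls. The 3 groups did not overlap. Mrc1 was 3.70-fold higher in Sf1-Cre testes (1.89 ± 0.15, adjusted p = 1.28e-05) and 2.89-fold higher in the arrays labelled Dhh-Cre (1.53 ± 0.18, adjusted p = 9.57e-05), and lower after centring on the peritubular and endothelial genes. The mutants differed by 0.36, which was not called (adjusted p = 0.139).

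Adgre1 encodes F4/80, an adhesion G protein-coupled receptor and the standard surface marker of mouse macrophages. Its levels were 8.81, 9.08, 8.97 and 9.58 in Sf1-Cre testes, 8.68 and 8.56 in those labelled Dhh-Cre, and 5.62 and 5.68 in controls. The mutants were adjacent without overlap and both were well above the controls. The differences from controls were 3.46 ± 0.22 in Sf1-Cre testes (11.0-fold, adjusted p = 3.28e-06) and 2.97 ± 0.25 in the arrays labelled Dhh-Cre (7.85-fold, adjusted p = 1.83e-05). That between the mutants was 0.49, with an interval from -0.01 to 0.99 (adjusted p = 0.147).

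C1qa and C1qb encode chains of C1q, the recognition part of the first complement component, which macrophages secrete. C1qa was at 8.18, 8.52, 8.27 and 9.10 in Sf1-Cre testes, 8.25 and 8.34 in those labelled Dhh-Cre, and 3.87 and 3.76 in controls. The mutant groups overlapped, and both controls were under the floor. C1qa was therefore at least 22.9-fold higher in Sf1-Cre testes (fitted difference 4.70 ± 0.25, adjusted p = 1.66e-06) and at least 19.6-fold higher in the arrays labelled Dhh-Cre (4.48 ± 0.29, adjusted p = 6.19e-06), with a difference of 0.22 between the mutants (95% interval -0.36 to 0.81, adjusted p = 0.574).

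The brightest C1qb probe set, 1437726_x_at, read 13.68, 13.60, 13.41 and 13.63 in Sf1-Cre testes, 13.56 and 13.48 in those labelled Dhh-Cre, and 11.77 and 11.93 in controls. It was higher by 1.73 ± 0.14 in Sf1-Cre testes (3.32-fold, adjusted p = 1.4e-05) and by 1.67 ± 0.17 in the arrays labelled Dhh-Cre (3.18-fold, adjusted p = 4.27e-05), with overlapping mutants (0.06, interval -0.27 to 0.39). The probe set 1434366_x_at behaved alike, with differences of 1.58 and 1.56 from the controls. The third, 1417063_at, read 10.15, 10.17, 10.04 and 10.50 in Sf1-Cre testes, 9.40 and 9.39 in those labelled Dhh-Cre, and 6.25 and 6.39 in controls. On it C1qb was higher by 3.90 ± 0.17 in Sf1-Cre testes (14.9-fold, adjusted p = 5.72e-07) and by 3.07 ± 0.19 in the arrays labelled Dhh-Cre (8.41-fold, adjusted p = 5.04e-06), and the mutants differed by 0.83 ± 0.17 (adjusted p = 0.0121). The size of the C1qb difference thus depends on the probe set. The suffix x marks probes that may also bind other transcripts, whose part in the result was not tested.

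Lyz2, lysozyme M, cleaves the cell wall of bacteria and is the usual pan-myeloid marker of mouse work. Its levels were 12.51, 12.47, 12.32 and 12.49 in Sf1-Cre testes, 11.25 and 11.61 in those labelled Dhh-Cre, and 8.25 and 8.09 in controls. The 4 Sf1-Cre arrays lay close together and clear of both other groups. Lyz2 was 19.4-fold higher in Sf1-Cre testes (4.27 ± 0.16, adjusted p = 3.65e-07) and 9.57-fold higher in the arrays labelled Dhh-Cre (3.26 ± 0.18, adjusted p = 3.38e-06) than in controls. Between the mutants it differed 2.02-fold (1.02 ± 0.16, adjusted p = 0.00466). Without the 3 arrays high in Spink8, which leaves 1 array labelled Dhh-Cre, that difference was 0.87 (adjusted p = 0.116), and centring on other macrophage genes brought it to -0.012.

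Set against each other, the mutants differed in 3 of the 8 genes, Clec7a, Lyz2 and Tyrobp, and in 4 of the 12 probe sets, all higher in Sf1-Cre testes. Of the 6 genes at the floor on every array, which leaves out Clec7a, 2 were called higher. Of all tested probe sets 10.2% were called higher in Sf1-Cre testes than in the arrays labelled Dhh-Cre, and of all genes 12.4%, with 11.1% of genes lower. The groups stood clear of each other for 9 of the 12 probe sets, against 45.3% of all probe sets. The median difference over the 8 genes was 0.52, against 0.02 over all genes tested. The arrays labelled Dhh-Cre carried more Dmrt1 signal than the controls, so no direction between the mutants is read here as one between levels of Dmrt1 loss. With 5 of the 8 genes not called, among them Csf1r and Adgre1, the intervals still allow differences of up to 1.19.

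Within the Sf1-Cre group, replicate 4 was the highest array for 5 of the 8 genes and replicate 1 for the other 3, while the lowest was replicate 1 for 5 genes and replicate 3 for 3. Without replicate 1 all 8 members were still called higher than in controls, with Clec7a at 5.25, Tyrobp at 4.64 and Lyz2 at 4.25, and Csf1r joined the genes called between the mutants (0.82, adjusted p = 0.0149). Without the 3 arrays high in Spink8 the counts against controls were again 8 in Sf1-Cre testes and 7 in the arrays labelled Dhh-Cre, but only Clec7a was called between the mutants (4.77, adjusted p = 0.00405).

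**Figure D2:**
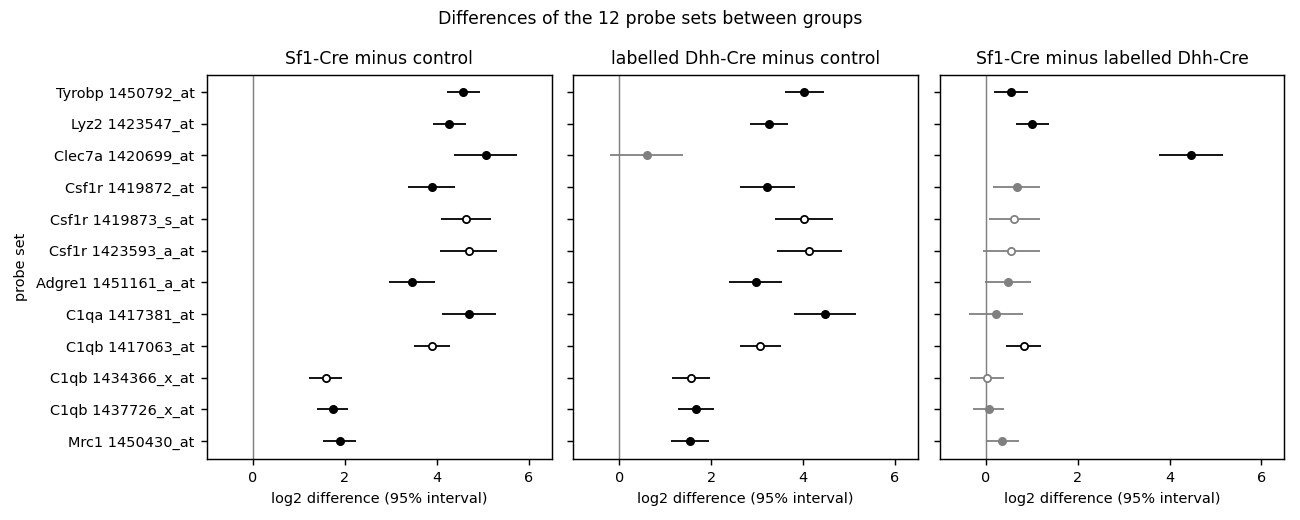
Log2 differences of the 12 probe sets with 95% intervals, filled for the leading probe set and grey where the adjusted p missed 0.05. All intervals against controls lie above 0 except that of Clec7a in the arrays labelled Dhh-Cre, and the 3 C1qb probe sets read 1.58, 1.73 and 3.90 in Sf1-Cre testes; centring on peritubular and endothelial genes took 3.17 and 2.93 off the first and second panels and turned Mrc1 and the 2 C1qb probe sets whose names hold an x negative in both, and Clec7a in the second.

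The partners of these receptors were measured too. Tested were 16 genes among ligands, co-receptors and downstream kinases and adaptors. Of these, 10 were higher and 3 lower in Sf1-Cre testes (median 1.73). In the arrays labelled Dhh-Cre 9 were higher and 2 lower (median 1.24). Only 9 of the 16 were at the floor on both controls, and the others passed the filter only with mutant arrays. Those 9 gave 4 higher and 3 lower in Sf1-Cre testes (median 0.12), with 4 and 2 in the arrays labelled Dhh-Cre (median 0.18). Csf1, the main ligand of Csf1r, was at 7.86, 7.83, 8.38 and 9.15 in Sf1-Cre testes, 7.65 and 8.01 in those labelled Dhh-Cre, and 3.58 and 3.86 in controls, fitted differences of 4.58 and 4.11 (adjusted p = 1.08e-05 and 4.85e-05). As both controls were under the floor, Csf1 was at least 19.8-fold higher in Sf1-Cre testes and at least 14.2-fold higher in the arrays labelled Dhh-Cre. Il34, the other ligand, stayed under the floor on all 8 arrays (2.75 to 3.66) and was not tested. Trem2, a lipid-sensing receptor that signals through Tyrobp, was higher by 3.55 in Sf1-Cre testes and by 2.58 in the arrays labelled Dhh-Cre, and higher in Sf1-Cre testes than in those (0.97, adjusted p = 0.0301); against the floor, where its controls lay, that is at least 5.01-fold and at least 2.56-fold.

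Fcer1g, the sister adaptor of Tyrobp in Fc receptor complexes, was higher by 4.03 in Sf1-Cre testes and 3.58 in the arrays labelled Dhh-Cre. Syk, the kinase downstream of Tyrobp, Fcer1g and Clec7a, was higher by 3.50 and 3.29, or at least 6.67-fold and at least 5.76-fold against the floor. Csf2rb, the signalling subunit of the GM-CSF receptor, was higher by 3.42 and 3.58, and Bcl10, which carries the Clec7a signal toward NF-kappaB, by 2.09 and 2.23. Csf2ra was higher by 1.18 and 0.98 on its brightest probe set, while a dimmer one read -0.47 in Sf1-Cre testes (adjusted p = 0.0838). Vav1, a guanine exchange factor of haematopoietic cells, was lower, with a difference of -1.01 in Sf1-Cre testes and -2.58 in the arrays labelled Dhh-Cre. Malt1 and Trem1, named after their values were seen, were the other genes called lower in Sf1-Cre testes. After housekeeping centring 9 of the 16 were above 0 in Sf1-Cre testes, and 5 and 1 under the peritubular and endothelial and the macrophage centrings.

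The third C1q chain and the rest of the early complement path moved the same way as the members. All 9 complement genes tested were higher in Sf1-Cre testes (median 4.45) and all 9 in the arrays labelled Dhh-Cre (median 3.73). Of the 9, 6 were at the floor on both controls, and all 6 were higher in each mutant. Under the 3 centrings 8, 8 and 4 of the 9 stayed above 0 in Sf1-Cre testes. C1qc was at 9.79, 10.09, 9.97 and 10.42 in Sf1-Cre testes, 9.56 and 9.47 in those labelled Dhh-Cre, and 5.19 and 5.22 in controls, and its differences from controls of 4.86 and 4.31 (adjusted p = 4.27e-07 and 2.21e-06) are near the 4.70 and 4.48 of C1qa. In RefSeq C1qb, C1qc and C1qa lie next to each other on mouse chromosome 4, between Ephb2 and Epha8. The proteases that C1q activates, C1ra and C1s1, were higher by 4.72 and 4.60 in Sf1-Cre testes and by 4.61 and 4.42 in the arrays labelled Dhh-Cre. C2, which C1s cleaves, was higher by 4.32 and 3.73, and Serping1, the inhibitor of C1r and C1s, by 3.93 and 3.96. C3ar1, the receptor for the C3a fragment, was higher by 4.45 and 3.33 (at least 14-fold and at least 6.46-fold, its controls being under the floor), with a difference of 1.12 between the mutants (adjusted p = 0.0266). C1qbp, a mitochondrial protein that also binds C1q, was higher by 0.75 and 0.81.

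Among the other C-type lectin receptors 8 of 10 tested genes were higher and 1 lower in each mutant. Medians were 2.57 in Sf1-Cre testes and 2.00 in those labelled Dhh-Cre. Only 3 of the 10 were at the floor on both controls, with 1 higher and 1 lower in each mutant (medians -0.16 and 0.12). Under the 3 centrings 7, 4 and 0 of the 10 stayed above 0 in Sf1-Cre testes. Clec10a, a receptor for galactose-type sugars, was the one nearest to Clec7a in setting the mutants apart, at 8.39, 8.03, 8.28 and 8.84 in Sf1-Cre testes, 5.84 and 5.99 in those labelled Dhh-Cre, and 3.70 and 4.15 in controls. It differed by 2.47 between the mutants (adjusted p = 0.000702), though unlike Clec7a it was also called higher in the arrays labelled Dhh-Cre than in controls (1.98, adjusted p = 0.000264). Its control mean was under the floor, as were those of Clec4n, Colec12 and Mrc2, so the differences of these 4 genes from controls are fitted values and not bounds. Clec4n, known as Dectin-2, was higher by 4.09 and 3.55, and Colec12, a scavenger receptor, by 3.34 and 3.02. Cd302 was higher by 2.04 and 2.01, Cd209f by 2.36 and 3.07, and Mrc2, the relative of Mrc1 that takes up collagen, by 0.83 and 1.20. Clec4a2, an inhibitory receptor, ran the other way, with differences of -2.24 in Sf1-Cre testes and -3.65 in the arrays labelled Dhh-Cre.

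Lyz2 has relatives with opposite values. Lyz1, the Paneth cell lysozyme, lies next to Lyz2 on chromosome 10 in RefSeq and is nearly identical to it, so probes may not separate the pair. It was at 12.84, 12.85, 12.71 and 12.83 in Sf1-Cre testes, 12.50 and 12.54 in those labelled Dhh-Cre, and 10.66 and 10.68 in controls, and was higher by 2.14 and 1.85 (adjusted p = 2.82e-06 and 1.55e-05), turning negative under the peritubular and endothelial centring. The lysozyme-like genes Lyzl1, Lyzl6, Spaca3 and Lyzl4, the last 2 known from sperm, were all lower. Lyzl1 was at 10.32, 9.32, 8.59 and 7.99 in Sf1-Cre testes, 3.32 and 5.87 in those labelled Dhh-Cre, and 12.39 and 12.49 in controls. In Sf1-Cre testes the 4 differences ran from -3.39 to -4.38, and in the arrays labelled Dhh-Cre from -6.42 to -7.85. Spaca3 and Lyzl4 had means under the floor in the arrays labelled Dhh-Cre, so their differences from that group are fitted values. All 4 were higher in Sf1-Cre testes than in the arrays labelled Dhh-Cre, by 2.04 to 4.46 (adjusted p of 0.00697 to 0.0267). Beside them, the summed intensity of 10 spermatid markers was 607 to 3012 in Sf1-Cre testes, 1140 and 11932 in those with the Dhh-Cre label, and 54378 and 58960 in controls, and its part in the lysozyme-like values was not tested.

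**Figure D3:**
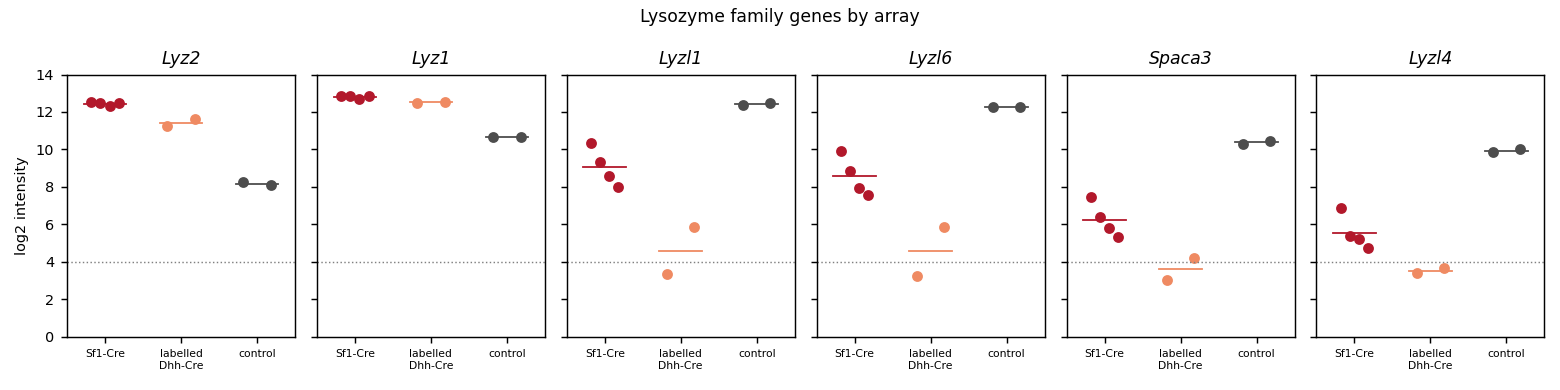
Log2 intensity of Lyz2, Lyz1 and 4 lysozyme-like genes in each array, with bars at group means and a dotted line at the floor of log2 4. Lyz2 and Lyz1 are higher in both mutants than in controls, while Lyzl1, Lyzl6, Spaca3 and Lyzl4 are lowest in the arrays labelled Dhh-Cre and highest in controls; Lyz1 but not Lyz2 turned negative in Sf1-Cre testes under the peritubular and endothelial centring.

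All 4 tested adhesion receptors other than Adgre1 were higher in each mutant, with Adgrg1 at 4.08 and 4.14, Adgrl4, an endothelial receptor, at 3.58 and 3.57, Adgre5, the leukocyte antigen CD97, at 3.09 and 2.33, and Adgrg2 at 2.04 and 2.88 (fitted values, since the controls of the last 3 were under the floor and Adgrg2 barely passed it in Sf1-Cre testes); the count in Sf1-Cre testes was 4, 2 and 0 under the 3 centrings. Adgre4 stayed under the floor on all arrays. Of 10 myeloid transcription factors 7 were higher and 1 lower in each mutant. Of the 4 at the floor on both controls 3 were higher and 1 lower in each mutant. Under the centrings 5, 3 and 1 of the 10 stayed above 0 in Sf1-Cre testes. Spi1 was near the floor, at 3.99, 3.79, 3.99 and 4.67 in Sf1-Cre testes, 4.03 and 3.67 in those labelled Dhh-Cre, and 3.66 and 3.43 in controls, and was not called (0.57, adjusted p = 0.0716, and 0.31, adjusted p = 0.364). Cebpa was higher by 4.59 and 4.01, Maf by 4.18 and 3.63, and Irf5 by 1.21 and 1.20. Against the floor, under which their controls lay, Irf8 was at least 16.3-fold and at least 9.81-fold higher and Ikzf1 at least 1.94-fold and at least 1.09-fold. Klf4, which germ cells and epithelia also use, was lower, by log2 differences of -3.30 in Sf1-Cre testes and -2.50 in the arrays labelled Dhh-Cre.

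A second macrophage list of 20 genes was measured beside the members. Like the members, it was chosen with earlier results of these data known, so it gives no independent check on the cell type. On every Sf1-Cre array 19 of the 20 reached the floor, on both arrays labelled Dhh-Cre 17, and on both controls 13. Of 19 tested, 16 were higher and 2 lower in Sf1-Cre testes (median 3.58). In the arrays labelled Dhh-Cre 16 were higher and 3 lower (median 2.95). The 13 at the floor on both controls gave 10 higher and 2 lower in Sf1-Cre testes, and 10 and 3 in the arrays labelled Dhh-Cre. Under the 3 centrings 16, 11 and 5 of the 19 were above 0 in Sf1-Cre testes. Cd163, the haemoglobin scavenger receptor of resident macrophages, was higher by 5.09 and 4.42, Cd53 by 4.42 and 3.30, Laptm5 by 3.95 and 3.87, the protease gene Ctss by 3.84 and 3.21 and Mpeg1 by 2.74 and 2.78. Aif1, a calcium-binding protein also known as Iba1, went the other way, at 10.61, 9.99, 9.70 and 9.68 in Sf1-Cre testes, 8.32 and 9.13 in those labelled Dhh-Cre, and 13.40 and 12.63 in controls. Its differences from controls were -3.02 and -4.29 (adjusted p = 9.65e-05 and 3.46e-05), and the scavenger receptor gene Msr1, named after its values were seen, was called lower on its brightest probe set, while a dimmer one was called higher. Fcgr3, a low affinity Fc receptor, was not called in Sf1-Cre testes (-0.50, adjusted p = 0.0677) and was lower in the arrays labelled Dhh-Cre (-1.52, adjusted p = 0.000777). Between the mutants 12 of the 19 were higher and 1, Lgmn, lower in Sf1-Cre testes.

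**Figure D4:**
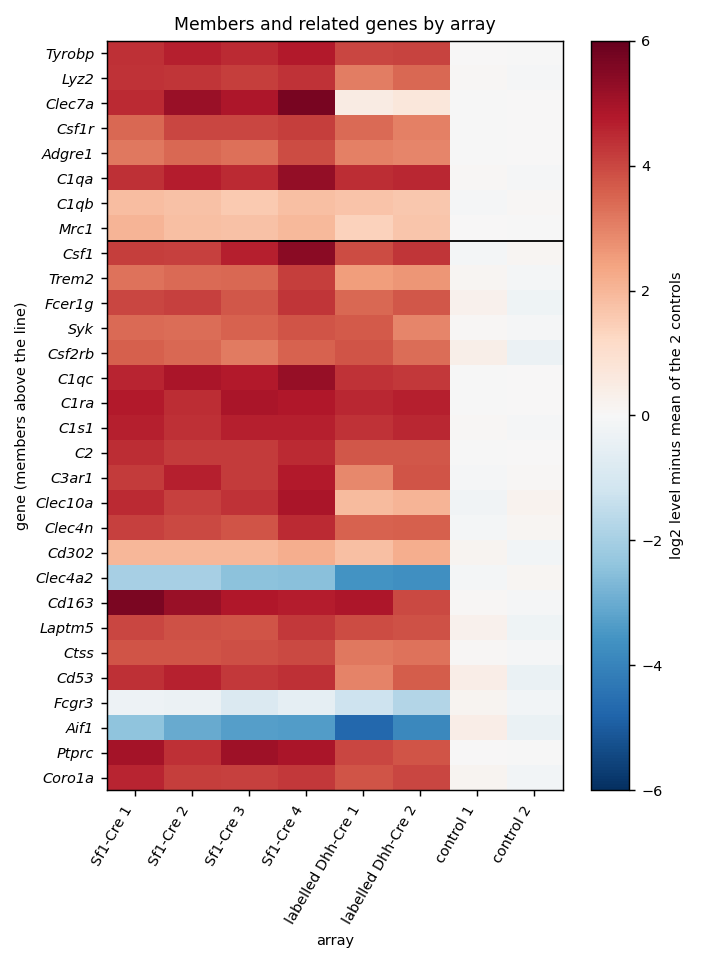
Log2 level of the 8 members (above the line) and 22 related genes in each array, minus the mean of the 2 controls of the same gene. Clec7a and Clec10a are paler in the arrays labelled Dhh-Cre than in Sf1-Cre arrays. Of the rows shown, only Clec4a2, Fcgr3 and Aif1 are below 0 in the mutant columns. The related genes shown are a selection. Vav1, Malt1, Trem1, Klf4 and, on its brightest probe set, Msr1 were called lower in Sf1-Cre testes and are not among them. The 3 centring steps would take 1.38, 3.17 or 4.49 off the Sf1-Cre columns and 1.41, 2.93 or 3.47 off those labelled Dhh-Cre.

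Markers of other leukocytes were given beside the members because Tyrobp, Lyz2, Clec7a and Ptprc are not confined to macrophages. Of 6 pan-leukocyte genes 6 were higher in Sf1-Cre testes and 4 in those labelled Dhh-Cre (5, 4 and 1 above 0 in Sf1-Cre testes under the centrings). Ptprc, the CD45 antigen, was higher by 4.85 and 3.89 (at least 20.4-fold and at least 10.5-fold against the floor) and differed by 0.96 between the mutants (adjusted p = 0.018). The summed intensity of 7 neutrophil markers was 7191 in Sf1-Cre replicate 1, 56.6 to 72.2 in the other Sf1-Cre arrays, 177 and 48.1 in those with the Dhh-Cre label, and 81.9 and 71.7 in controls. None of the 4 neutrophil genes tested was called higher (S100a9 3.12, adjusted p = 0.193), and 1, Mpo, was lower. The sum of 5 B cell markers was 664 in Sf1-Cre replicate 1 and 77.4 to 150 in the other Sf1-Cre arrays, against 59.5 and 65.1 in those with the Dhh-Cre label, and 33.8 and 36.0 in controls. Both B cell genes tested, Ighm and Cd79b, were called higher in Sf1-Cre testes (median 3.35) and 1, Ighm, in the arrays labelled Dhh-Cre. No B cell gene reached the floor on a control array. The part of other leukocytes in the members' values was not tested beyond leaving out replicate 1.

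No NK cell gene reached the floor on 2 arrays, and of 3 T cell genes tested none was higher and 2 were lower. Of 4 mast cell genes 3 were higher in each mutant, as was the 1 dendritic cell gene tested, Zbtb46 (2.62 and 2.55). Only 1 of the 4 mast cell genes was at the floor on both controls. The members' own sum was 29188, 29935, 27053 and 31707 in Sf1-Cre replicates 1 to 4, 22528 and 22524 in those with the Dhh-Cre label, and 5022 and 5382 in controls. C1qb makes up a large part of this sum. Sf1-Cre replicate 1, the array rich in neutrophil markers, was the highest of its group for Lyz2, which neutrophils also express, and for Mrc1 and C1qb. Without that array the Lyz2 difference from controls was 4.25, against 4.27 with it.

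Genes of other cell types of the interstitium and the tubule wall were mostly higher than in controls too, on the deposited scale. Higher in Sf1-Cre testes were 5 of 6 Leydig genes (median 1.88), 8 of 10 peritubular genes (1.28), 8 of 8 endothelial genes (2.86) and 7 of 7 fibroblast genes (3.88). In the arrays labelled Dhh-Cre these counts were 4, 9, 8 and 7, with medians of 2.06, 2.06, 2.37 and 4.23. Only 3 of the 8 endothelial genes were at the floor on both controls, and all 3 were higher in each mutant. With housekeeping centring 5 of 6 Leydig, 4 of 10 peritubular, 7 of 8 endothelial and 7 of 7 fibroblast genes stayed above 0 in Sf1-Cre testes, with other macrophage centring 1, 0, 1 and 2. Between the mutants 5 of the 10 peritubular genes were lower and 0 higher in Sf1-Cre testes (median -0.70), where the members' median was 0.52. All 10 spermatid genes were lower in Sf1-Cre testes (median -6.25) and 9 of 10 in the arrays labelled Dhh-Cre (-6.94). How much of the members' differences goes with this shift of tissue makeup was not tested. The sum of 5 epididymis markers, 4406, 94.0, 1489 and 139 in Sf1-Cre replicates 1 to 4, 3248 and 71.6 in those with the Dhh-Cre label, and 164 and 53.0 in controls, did not follow the members.

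**Figure D5:**
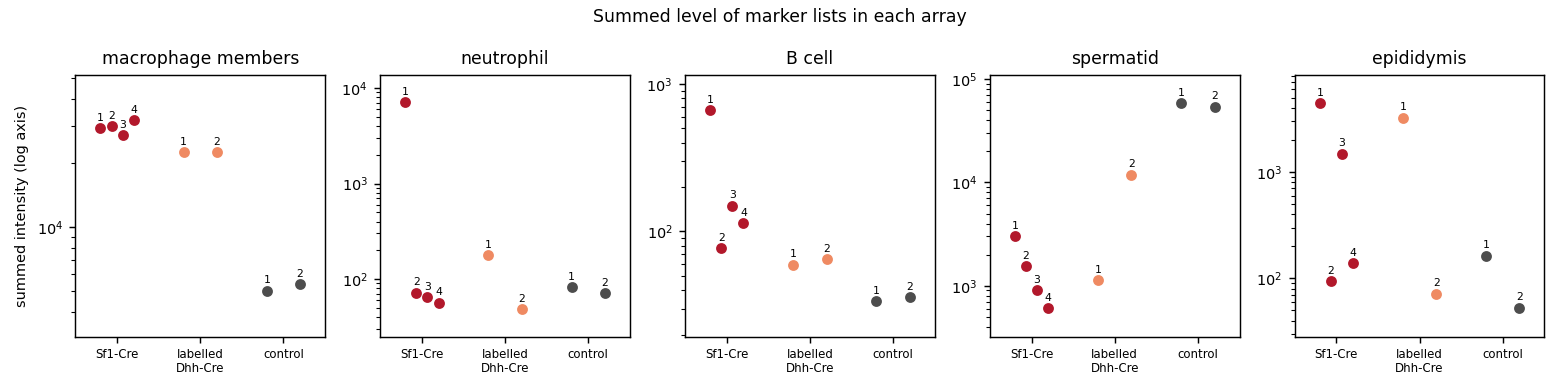
Summed intensity, on log axes that differ between panels, of the 8 members and of 4 marker lists in each array, numbered by replicate. The members' sum is 22524 to 31707 in mutants and 5022 to 5382 in controls, while Sf1-Cre replicate 1 stands alone in the neutrophil and B cell sums; the sums are on the deposited scale, without centring.

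Over the 8 arrays, with each gene centred on its own mean, the 10 of 13793 other tested genes closest to the mean profile of the members were Il18, Aspn, Hao2, Itm2a, Greb1l, Trps1, Trem2, Snhg4, Slc11a1 and Fcgr1, at root mean square distances of 0.12 to 0.19 log2 units. Among the members themselves Adgre1 was the closest to that mean (0.22) and Clec7a the farthest (1.44). Il18, an inflammasome cytokine, was higher than in controls by 3.89 in Sf1-Cre testes and by 2.74 in those labelled Dhh-Cre. Next in rank, Aspn was higher by 3.68 and 2.82 (fitted values, its controls being under the floor) and Hao2 by 3.68 and 2.74. Slc11a1, a metal transporter of phagosomes, was higher by 3.56 and 2.40. Il18, Aspn and Hao2 are on no macrophage list used here, so a profile near that of the members was not particular to macrophage genes. Taken one by one, the nearest gene was Cd93 for Csf1r, Tmc4 for Tyrobp, Tlr1 for Clec7a, 2610001J05Rik for Mrc1, Ctsd for Adgre1, C1qc for C1qa, Slc25a5 for C1qb and Cav1 for Lyz2. Tlr1, a toll-like receptor for bacterial lipopeptides, lay at a distance of 0.21 from Clec7a and was likewise above the floor on Sf1-Cre arrays only, at 6.23, 6.81, 7.06 and 7.88, against 2.78 and 2.80 in those with the Dhh-Cre label, and 2.01 and 2.01 in controls. The genes were ranked on the same arrays, so closeness is a description of these 8 samples.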

How the data were processed

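RNA from whole testes was hybridised to Affymetrix arrays, 4 Sf1-Cre, 2 labelled Dhh-Cre and 2 control. The authors deposited 1 linear intensity per probe set and array, made with GCRMA per the submitters' processing notes, for which the sources used here give no version. Up to 11.5% of values in 6 arrays were written in exponent notation and so rounded. The number of arrays limits the precision.

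Log2 was taken here, 64 control probe sets were left out, and the 25761 probe sets at log2 4 (intensity 16) or above on at least 2 arrays were tested, of 13801 genes. Of 45101 probe sets 34958 had 1 gene symbol, 932 several and 9211 none listed; 34754 were matched to RefSeq by Entrez identifier. limma 3.58.1 (R 4.3.3) fitted the 3 group means on all 8 arrays (5 residual and 3.01 prior degrees of freedom), with Benjamini-Hochberg adjusted p under 0.05 as the threshold; intervals are 95%. The probe set with the highest mean stood for a gene. A fold against a group mean under the floor is a bound against the floor. Tables and figures used Python 3.11.15, pandas 2.3.3 and matplotlib 3.10.9. The fit was tested on simulated data with few probe sets changed. Differences of log2 1 were recovered in 30% (Sf1-Cre against control), 19% (Dhh-Cre against control) and 29% (between the mutants). For log2 2 these shares were 75%, 70% and 82%. Far more probe sets were called in the data (45.9% higher in Sf1-Cre testes than in controls), which makes the adjusted threshold less strict there. The shares thus describe the simulation and not the recovery in these comparisons. A gene not called may still differ.

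Named genes were all members, up to 6 of the brightest tested genes of each list, partners chosen for their role, and the genes closest in profile. Members and lists were chosen with earlier results of these data known. Card9 was not analysed here. Same-numbered arrays did not deviate together (correlations of -0.18 to 0.26), so they are not treated as pairs. The 24 alternatives covered thresholds, normalization, centring, filters, moderation, probe set choice, a replicate block and left-out arrays.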

Additional observations from a re-analysis of the deposited data

Results flagged for a closer look

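The difference between the mutants passed its test for several members and related genes. Each log2 value is Sf1-Cre minus the arrays labelled Dhh-Cre, in which the Dmrt1 signal was higher than in controls. Among the members these were Clec7a (4.47, measurable in Sf1-Cre arrays alone), Lyz2 (1.02), C1qb on 1417063_at (0.83) and Tyrobp (0.55). Of the partners and complement genes they were Vav1 (1.57), C3ar1 (1.12), Trem2 (0.97) and C2 (0.58). Lectins gave Clec10a (2.47) and Clec4a2 (1.41). The lysozyme-like genes gave Lyzl1 (4.46), Lyzl6 (4.01), Spaca3 (2.61) and Lyzl4 (2.04). Other macrophage and leukocyte genes were Aif1 (1.27), Cd53 (1.12), Cd48 (1.12), Fcgr3 (1.01), Ptprc (0.96), Ctss (0.63) and Ighm (1.27). Dmrt1 (-2.64) and Lgmn also passed, lower in Sf1-Cre testes, and the list is not complete.

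In 8 probe sets 1 Sf1-Cre array stood far from the other 3 by Dixon's criterion, which chance meets in about 1 in 20 groups. All 12 member probe sets and the other genes reported here were screened. How many of the 8 arose by chance was not tested. Replicate 1 was high in S100a9 (12.17), Camp (6.81) and Cd79a (5.57). Replicate 4 was high in Csf1r on 1423593_a_at (9.29), in Cd302 (11.74) and in Adgrg2 (4.91). C1s1 stood out in replicate 2 (10.93) and Lyz1 in replicate 3 (12.71).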

How the results depend on the processing

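Without the 3 centrings and the 2-group fit, the members' calls against controls were kept under every alternative run; the 2-group fit alone also called Clec7a higher in the arrays labelled Dhh-Cre than in controls (0.59, adjusted p = 0.0264). Under housekeeping centring Clec7a turned to -0.82 in those arrays, which made 1 member lower. Under peritubular and endothelial centring C1qb (-1.44) and Mrc1 (-1.29) turned in Sf1-Cre testes (5 members higher, 2 lower), and Clec7a (-2.34), C1qb (-1.26) and Mrc1 (-1.40) in the arrays labelled Dhh-Cre (2 higher, 3 lower), with 1 higher between the mutants, where C1qa (-0.020) and C1qb (-0.18) turned. Under other macrophage centring Csf1r (-0.60), Lyz2 (-0.22), C1qb (-2.76), Mrc1 (-2.61) and Adgre1 (-1.03) turned in Sf1-Cre testes (0 higher, 3 lower). In the arrays labelled Dhh-Cre Csf1r (-0.24), Clec7a (-2.87), Lyz2 (-0.21), C1qb (-1.79), Mrc1 (-1.94) and Adgre1 (-0.49) turned (1 higher, 3 lower). Between the mutants C1qa (-0.80), Lyz2 (-0.012), C1qb (-0.97), Mrc1 (-0.67), Tyrobp (-0.48), Csf1r (-0.35) and Adgre1 (-0.54) turned (1 higher, 3 lower). The centrings subtract a step from every probe set by construction, and against controls that step exceeded the change of most tested genes of the list used.

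Of the 24 alternatives, Lyz2 was called between the mutants in 21, Tyrobp in 10 and Csf1r in 4. The share of probe sets called between the mutants was 21.4%, 8.11% at an adjusted p under 0.01, 13.3% with at least a 2-fold change, 13.1% with no filter, 77.2% under other macrophage centring and 4.47% without the 3 arrays high in Spink8, where 1 member was called. Leaving out single arrays gave 7.23% (without replicate 1 labelled Dhh-Cre) to 23.3% (without Sf1-Cre replicate 4), with 2 to 4 members called. With the replicate number as a block the shares called were 68.0% and 76.0% against controls in Sf1-Cre and Dhh-Cre arrays and 17.6% between the mutants; of the members only Tyrobp changed its call (0.51, adjusted p = 0.146 between the mutants), and the numbers do not pair the samples.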
